A study of Mus musculus with 16 samples.

Results

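The genes described here encode the HuR family of RNA-binding proteins and other proteins that bind AU-rich elements in messenger RNA. The 10 genes were chosen by name as Elavl1, Elavl2, Elavl3, Elavl4, Zfp36, Zfp36l1, Zfp36l2, Hnrnpd, Khsrp and Tia1, out of 33641 gene symbols in the deposited tables, and each of the 10 was found. The study measured transcript levels by RNA sequencing of bulk tissue from mice in which HuR, the product of Elavl1, was to be deleted in adipocytes. Subcutaneous white adipose tissue (scWAT) was represented by 5 wild-type mice (A5, A7, A8, A12, A14) and 3 mice labelled Adipo-HuR KO (A24, A26 and A30). The heart was represented by 4 wild-type mice (A5, A7, A8 and A14) and 4 mice labelled Adipo-HuR KO (A25, A29, A30 and A31). All 11 mice were C57BL/6J and 28 weeks old, and 5 of them gave both tissues, 4 wild-type and 1 labelled knockout. The sources used here do not give the Cre line that drives the deletion, the exons it removes, or any Cre or floxed allele carried by the wild-type mice. Values are in TPM, a transcript abundance corrected for transcript length and scaled to the same total in each library, so levels can be compared between genes.

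AU-rich elements are stretches of A and U, often with the pentamer AUUUA, found in the 3′ untranslated regions (3′ UTRs) of many short-lived messenger RNAs. HuR binds such sequences and in general stabilises the transcript or aids its translation, while tristetraprolin (Zfp36) and its relatives recruit the CCR4-NOT deadenylase and bring about decay. Hnrnpd encodes AUF1, whose isoforms can act either way, Khsrp encodes KSRP, which recruits decay enzymes, and Tia1 encodes a translational repressor of stress granules. Transcripts of several of these genes carry AU-rich elements themselves, and HuR and tristetraprolin are known to act on their own messenger RNAs.

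The annotated 3′ UTRs of the 10 genes were read from GENCODE M21 on the mouse build GRCm38, taking for each gene the transcript with the longest one, and searched on the sense strand for the nonamer TTATTTATT, overlapping matches included. The nonamer is a classical tristetraprolin site, and it was present in 5 of the 10 genes and in 7.60% of the 20979 genes with an annotated 3′ UTR. Elavl1 held 8 copies, in a run of 4 overlapping copies, 1 separate copy and a run of 3 overlapping copies, within 55 bases near the end of a 3′ UTR of 4218 bases, and 0.667% of all genes held 3 or more. The sites below are shown because they are the sequences through which members of the family could bind one another's transcripts. Capitals mark the nonamer, the first Elavl1 line is the first copy of the tract, the next is the sixth, and the other genes have 1 copy each.
Elavl1, chr8:4285788-4285816, minus strand: gtcatgaaaaTTATTTATTtatttattta
Elavl1, chr8:4285750-4285778, minus strand: atttgtttgtTTATTTATTtatttattac
Elavl4, chr4:110204985-110205013, minus strand: cttgaaacacTTATTTATTtaattgcaga
Zfp36, chr7:28376951-28376979, minus strand: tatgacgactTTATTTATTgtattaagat
Zfp36l1, chr12:80108167-80108195, minus strand: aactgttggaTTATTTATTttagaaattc
Zfp36l2, chr17:84184914-84184942, minus strand: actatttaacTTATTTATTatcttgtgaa
The 3 members of the Zfp36 family each had 1 nonamer, in 3′ UTRs of 774 bases (Zfp36), 1835 bases (Zfp36l1) and 1822 bases (Zfp36l2). Among genes with 3′ UTRs of like length, 4.2%, 10.1% and 9.94% held the nonamer, and 17.9% of those with a length like that of Elavl1 did. No match to the nonamer was found in the annotated 3′ UTRs of Elavl2, Elavl3, Hnrnpd, Khsrp and Tia1. The shorter pentamer AUUUA, written ATTTA in DNA, occurred there 15, 8, 10, 1 and 8 times in that order. In the other members it occurred from 3 (Zfp36) to 17 (Elavl1) times, and its frequency over all genes was not counted. A match is a description of the sequence and does not show that a protein binds there.

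The tissue labels were checked against marker genes. The adipocyte genes Adipoq and Plin1 were at least 1154 TPM in each of the 8 scWAT libraries and at most 1.72 TPM in the hearts, and the cardiomyocyte gene Myh6 was between 1012 and 4769 TPM in the hearts and at most 0.146 TPM in scWAT. The 13 mitochondrially encoded genes took 6.14% to 14.4% of the TPM in scWAT and 43.4% to 60.6% in the heart. Because the TPM total is fixed, that share lowers each other gene in the heart. Some libraries stood apart. Summed over 15 skeletal muscle markers, scWAT of A24 and A30 (labelled knockout) reached 5424 and 10788 TPM, against 408 TPM in A26 and 59.2 to 1144 TPM in wild-type scWAT. In scWAT of A26 the 10 T cell markers summed to 572 TPM against at most 18.3 TPM in the other scWAT libraries. The B cell gene Cd79a was at 177 TPM in A26 against at most 7.33 TPM. Summed over 10 B cell markers, the ranges overlapped, at 145 to 1595 TPM in scWAT labelled knockout and 140 to 1625 TPM in wild type. The heart of A29, labelled knockout, had 52.7 TPM of Nppa, a cardiac stress gene, where the other 3 hearts labelled knockout had 5021 to 6980 TPM and the wild-type hearts 108 to 313 TPM. The members' values in scWAT without A24, A26 or A30, and in the heart without A29, are given with the results.

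Elavl1, the gene that was to be deleted, was read first. In wild-type scWAT its level was 33.4, 34.5, 27.6, 19.5 and 19 TPM in A5, A7, A8, A12 and A14. With the knockout label, A24 had 42.9, A26 had 42 and A30 had 36.2 TPM. The 3 libraries labelled knockout were thus above each of the 5 wild-type libraries, and the targeted gene went against the label at the level of whole-gene TPM. The knockout label averaged 40.4 ± 3.62 TPM (SD, n = 3) and wild type 26.8 ± 7.39 TPM (SD, n = 5). Their log2 fold change was 0.61 (SE 0.22, 95% confidence interval 0.11 to 1.12) and did not pass the threshold over all genes (limma, adjusted p = 0.256). The exact 2-sided permutation test over the 8 libraries gave p = 0.0536, where 0.0179 is the smallest value the design allows. A whole-gene TPM does not separate transcripts that lack an exon, and scWAT holds cells other than adipocytes. In bulk tissue, fewer cells of a type and less RNA per cell cannot be told apart. Leaving out A26 gave a log2 fold change of 0.58 and left the order of the groups as it was, while adding 2 covariates, the mean skeletal muscle marker and the mean B cell marker, turned it to -0.26 (limma, adjusted p = 0.963). With 8 libraries that fit had few degrees of freedom, and the part of muscle or lymphocytes in the Elavl1 values was not tested further. The summed level of 12 adipocyte markers spanned 65876 to 93284 TPM in wild-type scWAT and 69663 to 84976 TPM in scWAT labelled knockout, so those ranges overlapped.

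In the heart, where the cardiomyocytes were not the cells meant to lose the gene, Elavl1 was at 6.66, 12.6, 12 and 10.4 TPM in the wild-type mice A5, A7, A8 and A14. It was at 10.3, 8.82, 15.9 and 8.45 TPM in A25, A29, A30 and A31. The groups overlapped, with means of 10.4 ± 2.68 TPM (SD, n = 4) for wild type and 10.9 ± 3.46 TPM (SD, n = 4) for the knockout label. The log2 fold change was 0.05 with a 95% confidence interval of -0.55 to 0.64 (limma, adjusted p = 0.926). The highest value came from A30, the heart with the lowest mitochondrially encoded share of TPM (43.4%), and the lowest from A5, the heart with the highest (60.6%). After median-of-ratios scaling, which divides each library by its typical ratio to the mean library, the 8 hearts lay between 7.13 and 12.5 and the coefficient of variation over them fell from 27% to 16%. On that scale the means were 11.3 for wild type and 9.47 for the knockout label, and the groups overlapped through A29. The log2 fold change was then -0.25 and was not called (limma, adjusted p = 0.275).

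The neuronal members of the ELAVL family were at trace levels and did not pass the filter of 1 TPM on average, so they were not part of the tests across genes. Elavl2, Elavl3 and Elavl4 encode HuB, HuC and HuD, proteins known mainly from neurons. Elavl1 made up 96.2% ± 1.27 (SD, n = 5) of the summed ELAVL level in wild-type scWAT and 98.4% ± 1.74 (SD, n = 4) in wild-type heart. In the groups labelled knockout the share was 95.6% ± 1.23 (SD, n = 3) in scWAT and 98.2% ± 0.342 (SD, n = 4) in heart. The 3 neuronal genes together summed to at most 2.27 TPM in any of the 16 libraries.

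Elavl2 was at 0.418, 0.263, 0.607, 0.118 and 0.191 TPM in wild-type scWAT (A5, A7, A8, A12, A14) while A24 had 1.35, A26 had 0.658 and A30 had 1.19 TPM. The groups did not overlap and the knockout label was higher, as it was without overlap for 5.23% of the genes tested in scWAT. The means differed 3.33-fold (exact permutation test, p = 0.0179, the smallest possible), at a level so low that the unknown depth limits what it shows. When the filter was dropped, the log2 fold change was 0.64 and the adjusted p 0.321 (limma). In the heart Elavl2 was listed at 0 in A8 and A14, at 0.00671 TPM in A7 and at 0.256 TPM in A5, and between 0.0283 and 0.0886 TPM in the group labelled knockout. Elavl3 was at 0.387 to 0.902 TPM in wild-type scWAT and 0.511 to 0.876 TPM in scWAT labelled knockout, which overlapped. In the heart it was at 0.0341, 0.0369, 0.0374 and 0.0153 TPM in wild-type mice and at 0.178, 0.0520, 0.199 and 0.0695 TPM in A25, A29, A30 and A31. All 4 hearts labelled knockout were above the wild-type hearts (exact permutation test, p = 0.0286, the smallest possible), as were 3.71% of the genes tested, again at a level that does not pass the filter. Elavl4 was at most 0.115 TPM in any library and was listed at 0 in 3 of the 16. Summed over 12 neuron markers, A25, A30 and A31 reached 54.6 to 60.4 TPM, against 9.48 TPM in A29 and 7.58 to 12.3 TPM in wild-type hearts. Summed over 7 Schwann cell markers, they reached 85.2 to 94.8 TPM, against 16.9 TPM in A29 and 16.7 to 32.2 TPM in wild-type hearts. The neuron markers Snap25 and Syt1 were themselves at most 0.0395 and 0.0347 TPM in any heart. The part of these cell types in the Elavl3 values was not tested.

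**Figure D1:**
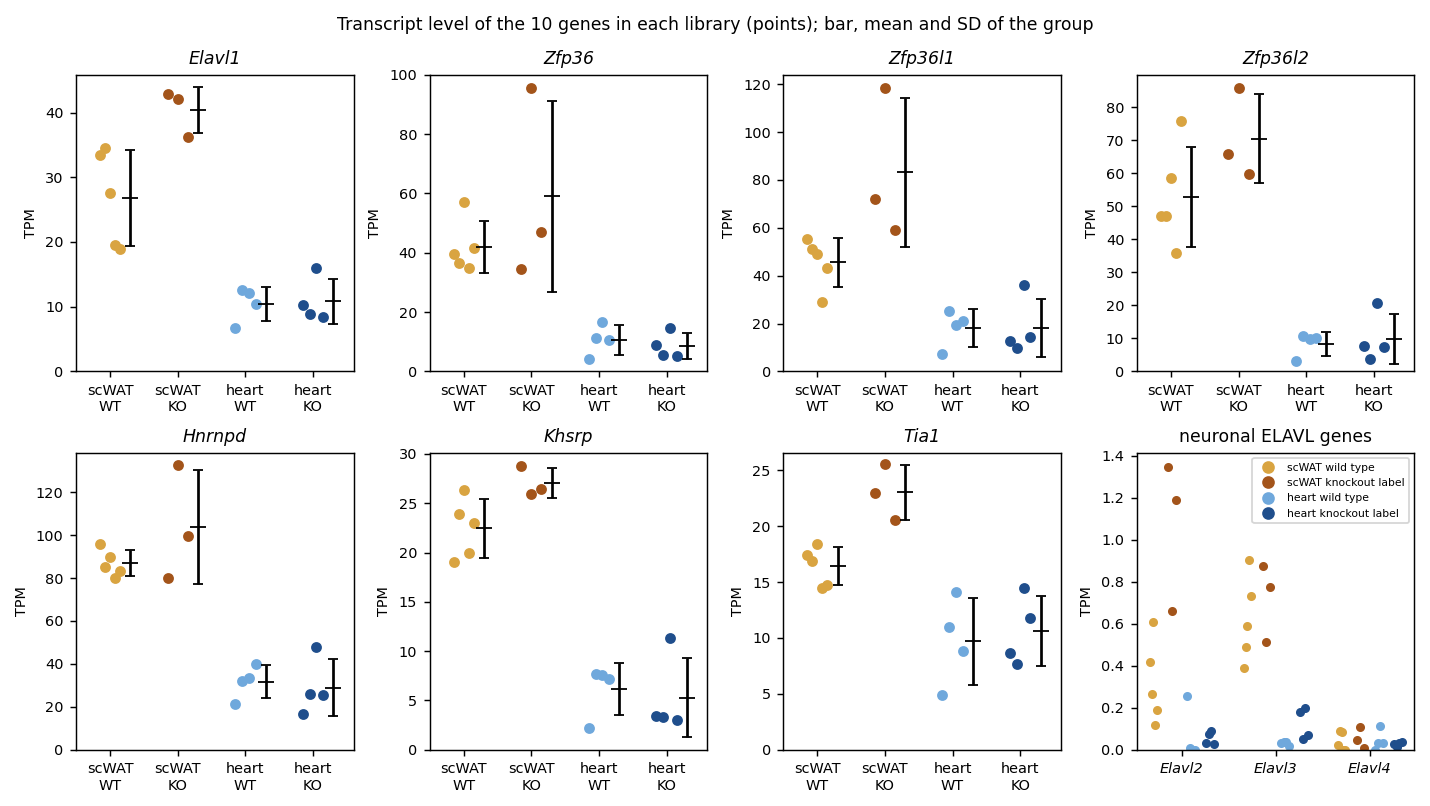
Level of each of the 10 genes in TPM (y axis, linear, starting at 0) in each library (points) by tissue and genotype label (x axis), with the mean and SD of each group for 7 genes. Elavl1, Zfp36l1 and Tia1 have all 3 scWAT libraries labelled knockout above the 5 wild-type ones, each wild-type heart point of the 7 genes lies below the wild-type scWAT points, and Elavl2, Elavl3 and Elavl4 stay at or under 1.35 TPM.

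The Zfp36 family encodes the zinc finger proteins that bring about decay of AU-rich transcripts, with Zfp36 (tristetraprolin) being the form induced quickly by growth factors and inflammation. Together the 3 genes summed to 140 ± 26 TPM (SD, n = 5) in wild-type scWAT and 213 ± 75.5 TPM (SD, n = 3) in scWAT labelled knockout. Zfp36 itself was at 39.5, 36.5, 57, 34.9 and 41.8 TPM in wild-type scWAT (A5, A7, A8, A12, A14), while A24 had 34.4, A26 had 95.5 and A30 had 47 TPM. Its groups overlapped, and A26 alone was above the wild-type range. The log2 fold change was 0.37 (limma, adjusted p = 0.539) and -0.04 without A26. In the same library the immediate early genes Egr1 (62.7 TPM) and Junb (79.5 TPM) were higher than in the other 7 scWAT libraries, where they were at most 8.96 and 29.8 TPM. The immediate early gene Fos was not, at 16.9 TPM in A26 and 19.2 TPM in wild-type A14. Whether these genes and the lymphocyte markers of A26 bear on its Zfp36 level was not tested.

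Zfp36l1, a relative known from development and lymphocyte biology, was at 55.5, 51.2, 49.3, 29.1 and 43.3 TPM in wild-type scWAT, while A24 had 71.9, A26 had 118 and A30 had 59.1 TPM. The 3 libraries labelled knockout were above all 5 wild-type ones. The log2 fold change was 0.82 (SE 0.27, 95% confidence interval 0.22 to 1.42; limma, adjusted p = 0.233), and it was 0.54 without A26. With the 2 marker covariates it was 0.28 (limma, adjusted p = 0.970). The exact permutation test gave the smallest p it can, 0.0179. Zfp36l2, also active in lymphocytes and in the germ line, was at 47, 47, 58.6, 35.8 and 75.8 TPM in wild-type scWAT, and A24, A26 and A30 had 65.8, 85.7 and 59.9 TPM. Its groups overlapped through wild-type A14, and the log2 fold change was 0.44 (limma, adjusted p = 0.380), or 0.29 without A26.

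Of the other AU-rich element binding proteins, Tia1 had the smallest p of the 7 tested members in scWAT. Hnrnpd, the most abundant of the 10 genes in each group, was at 95.7, 85.3, 89.98, 80.1 and 83.3 TPM in wild-type scWAT, while A24 had 79.96, A26 had 133 and A30 had 99.6 TPM. The groups overlapped and the log2 fold change was 0.23 (limma, adjusted p = 0.493), or 0.04 without A26. Khsrp was at 19.1, 23.9, 26.4, 19.95 and 23 TPM in wild-type scWAT, and A24, A26 and A30 had 28.7, 25.98 and 26.4 TPM, which overlapped in part. Its log2 fold change was 0.27 (limma, adjusted p = 0.373). Tia1 was at 17.5, 16.9, 18.4, 14.5 and 14.8 TPM in wild-type scWAT, while A24 had 23, A26 had 25.5 and A30 had 20.6 TPM. The 3 libraries labelled knockout were above the 5 wild-type ones, with a log2 fold change of 0.47 (SE 0.14, 95% confidence interval 0.16 to 0.78; limma, adjusted p = 0.222) and the smallest possible exact permutation p of 0.0179. Its log2 fold change was 0.39 without A26 and 0.28 with the 2 marker covariates.

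Counted together, 0 of the 7 tested members passed the threshold in scWAT, where limma called 3 of 13682 genes (0.0219%). At an unadjusted p under 0.05, 3 members were found (Elavl1, Zfp36l1 and Tia1), against 15.6% of all genes tested. The same 3 did not overlap between the groups and were higher with the knockout label, as were 5.23% of all genes. The log2 fold change was above 0 in 7 of 7 members and in 53.9% of all genes, with a median of 0.44 over the members and 0.03 over all genes. The members' values come from the same 8 libraries, in which the markers of muscle and lymphocytes described above also moved, so they are not 7 independent observations. Without A26 the 7 log2 fold changes ran from -0.036 (Zfp36) to 0.58 (Elavl1), without A24 from 0.22 (Khsrp) to 0.89 (Zfp36l1), and without A30 from 0.25 (Hnrnpd) to 1.03 (Zfp36l1). No member was called in any of these 3 fits (limma, smallest adjusted p 0.443, 0.335 and 0.157). With the 2 marker covariates they ran from -0.26 (Elavl1) to 0.81 (Zfp36l2), also with none called.

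**Figure D2:**
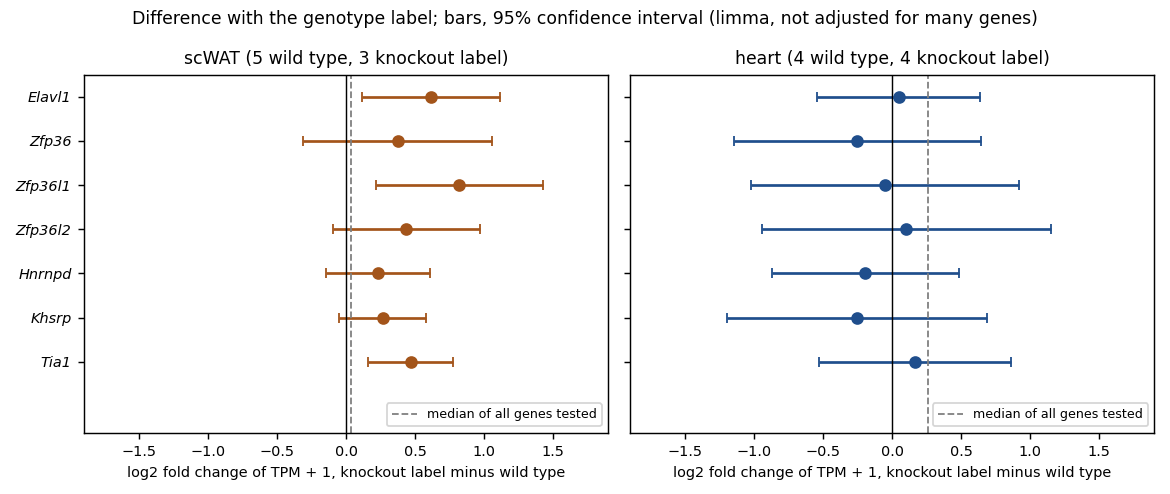
Log2 fold change of TPM + 1 between libraries labelled knockout and wild type (x axis) for 7 genes (y axis) in scWAT and in heart, with 95% confidence intervals from limma and the median of all genes tested as a dashed line. In scWAT the 7 values lie between 0.23 and 0.82, and in the heart between -0.26 and 0.17, each below the heart's median of 0.26.

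In the heart the members showed no difference with the genotype label that passed the test. Limma called 0 of the 7 tested members and 6 of 11981 genes (0.0501%), and 0 members had an unadjusted p under 0.05, against 24.6% of all genes. The groups overlapped for each of the 7, while 4.35% of all genes did not overlap. Zfp36 was at 4.01, 11.3, 16.6 and 10.7 TPM in the wild-type hearts (A5, A7, A8, A14) and at 8.77, 5.66, 14.6 and 5.16 TPM in A25, A29, A30 and A31. Zfp36l1 was at 7.06, 25.1, 19.5 and 21 TPM and at 12.6, 9.6, 36 and 14.4 TPM in the same order. In both genes the groups overlapped, with A5 lowest and, for Zfp36l1, A30 highest. Zfp36l2 was at 3.0, 10.8, 9.84 and 9.98 TPM in wild-type hearts and at 7.67, 3.68, 20.8 and 7.37 TPM in hearts labelled knockout. Its range over the 8 hearts was 6.95-fold, the widest of the 7 genes.

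Hnrnpd was at 21.3, 32.1, 33.3 and 39.9 TPM in the wild-type hearts and at 16.5, 25.9, 47.7 and 25.3 TPM in A25, A29, A30 and A31. Khsrp was at 2.24, 7.71, 7.55 and 7.21 TPM in wild-type hearts and at 3.46, 3.33, 11.3 and 3.06 TPM in the hearts labelled knockout. In Khsrp, 3 of the 4 hearts labelled knockout were at 3.06 to 3.46 TPM and 3 of the 4 wild-type hearts at 7.21 to 7.71 TPM, with A5 and A30 on the other side of each range. Tia1 was at 4.85, 10.9, 14.1 and 8.85 TPM and at 8.63, 7.64, 14.5 and 11.8 TPM. The log2 fold changes ran from -0.26 for Khsrp to 0.17 for Tia1, with adjusted p from 0.71 to 0.946 over the 7 members. The confidence intervals were -1.20 to 0.68 for Khsrp, -1.15 to 0.64 for Zfp36, -1.02 to 0.91 for Zfp36l1 and -0.95 to 1.15 for Zfp36l2. Changes of more than 2-fold in TPM cannot be set aside for these genes.

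All 7 values lay below the median of all heart genes, which was 0.26 above 0, so relative to the typical gene the members ran from -0.51 (Khsrp) to -0.09 (Tia1). A29 was the heart labelled knockout whose Nppa was below the range of the wild-type hearts. Without A29 the members' log2 fold changes were between -0.18 (Hnrnpd) and 0.43 (Zfp36l2), with none called, while the median of all genes was 0.39. A29 also had 292 TPM over 9 fibroblast markers and 170 TPM over 10 macrophage markers, where the other 3 hearts labelled knockout had at least 2418 and 1377 TPM and wild-type hearts at most 377 and 279 TPM. Weighting the libraries by limma's array weights called 4 members lower with the knockout label, namely Zfp36 (-0.51), Zfp36l1 (-0.67), Hnrnpd (-0.85) and Khsrp (-0.87). Under that setting 7885 of 11981 genes were called in all, so the calls of the 4 members rest on how much each heart is trusted.

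Much of the spread between hearts was shared by the 7 genes. In TPM, heart A5 had the lowest value for 6 of the 7 and heart A30 the highest for 6 of the 7. After median-of-ratios scaling A5 was lowest for 0 and A30 highest for 1 of the 7. On that scale the lowest value of each of the 7 genes was in a heart labelled knockout (A25 for 3, A31 for 3, A29 for 1), and the highest was in a wild-type heart for 6 (A7 for 3, A8 for 2, A14 for 1). The groups' log2 fold changes then ran from -0.53 (Zfp36) to -0.12 (Tia1), with none called (limma, adjusted p from 0.190 to 0.691). How often all genes had their lowest and highest values in these hearts was not counted. The 7 genes were read in the same 8 hearts, so they are not 7 independent observations. The coefficient of variation over the 8 hearts fell from 32.5% to 17.4% for Tia1 and from 51.8% to 34.4% for Zfp36l1 with that scaling. Over the 21 pairs of members, the median correlation of log2(TPM + 1) over the 8 hearts was 0.85 in TPM and 0.53 after scaling, and in scWAT it was 0.65 and 0.61. The hearts share the scaling to a fixed total, which takes part in these values.

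**Figure D3:**
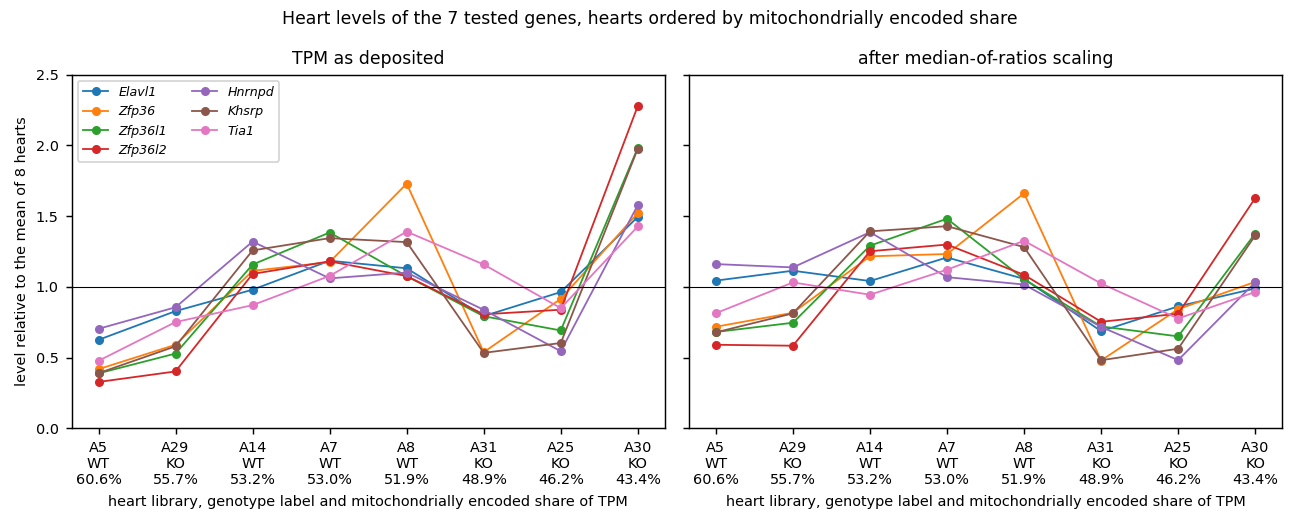
Level of 7 genes in each of the 8 hearts relative to the mean of the hearts (y axis, starting at 0), in TPM as deposited and after median-of-ratios scaling, with hearts ordered by the mitochondrially encoded share of TPM (x axis, 60.6% to 43.4%). In TPM the 7 lines are low together in A5 and A29 and high together in A30; after scaling they come closer to 1 in those hearts.

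Between the wild-type tissues, each of the 7 tested members was lower in the heart in TPM. Limma called 7 of 7 members lower, as it did 78.5% of the 13093 genes tested (86.6% were called in either direction), and the median log2 fold change of all genes was -1.27, so the direction alone sets the members apart from few genes. Zfp36l2 differed most, from 52.8 ± 15.1 TPM (SD, n = 5) in scWAT to 8.4 ± 3.63 TPM (SD, n = 4) in heart. Its log2 fold change was -2.59 (SE 0.31; limma, adjusted p = 6.47e-06). Zfp36 followed at -2.0, from 41.9 ± 8.85 to 10.6 ± 5.15 TPM, and Khsrp at -1.81, from 22.5 ± 2.97 to 6.18 ± 2.63 TPM. Hnrnpd (-1.46), Zfp36l1 (-1.38) and Elavl1 (-1.27) were near the median of all genes. Tia1 differed least at -0.78, from 16.4 ± 1.7 TPM to 9.7 ± 3.89 TPM. For the 7 genes no wild-type heart reached the lowest wild-type scWAT value, which held for 73.2% of all genes, and the exact permutation test gave its smallest p of 0.00794 for each.

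Relative to the median of all genes, the members fell into 3 sets in the main fit. Zfp36l2, Zfp36 and Khsrp were below the median in the main fit and in 17 of 17 alternatives, by 1.09 to 2.18, 0.51 to 1.58 and 0.33 to 1.39 on the log2 scale. Elavl1, Zfp36l1 and Hnrnpd lay within 0.20 of it in the main fit. Elavl1 was below it in 9 of the 18 fits and Zfp36l1 in 12, so both changed side with the setting. Hnrnpd was below it in 17 of the 18 fits, and its highest value was 0.0012 above it. Tia1 was above the median by 0.49, and in 17 of the 18 fits. With median-of-ratios scaling, 3 members were called lower in the heart (Zfp36l2 at -1.24, Zfp36 at -0.63 and Khsrp at -0.50) and Tia1 was called higher at 0.56. Elavl1, Zfp36l1 and Hnrnpd were at 0.10, 0.02 and -0.03 and were not called. On that scale 8685 of 12898 genes were called in either direction. With the mitochondrially encoded genes taken out of the total, Zfp36l2, Zfp36, Khsrp and Hnrnpd were called lower and Tia1 was at 0.15. That setting called 9272 of 13608 genes in either direction. In the files, the heart libraries are named for a sequencing run and the scWAT libraries are not, so tissue and run cannot be told apart.

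**Figure D4:**
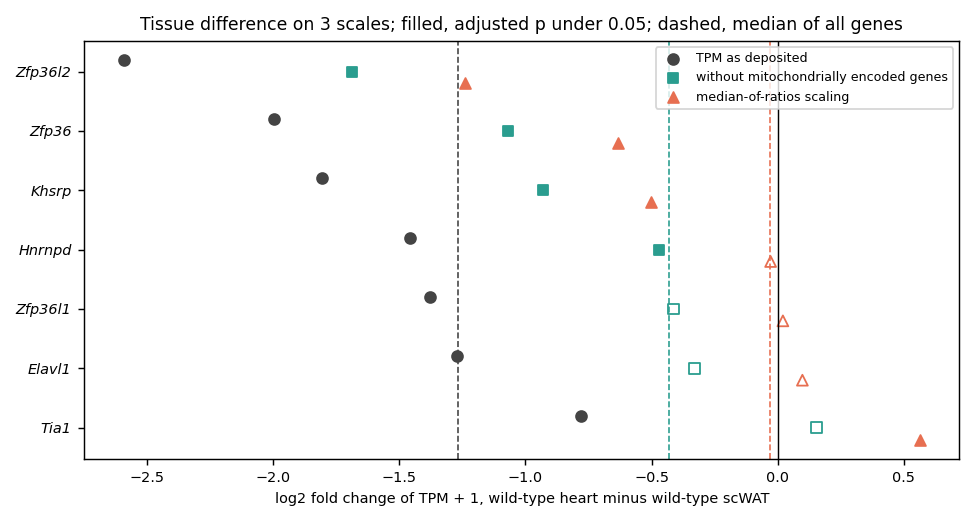
Log2 fold change of TPM + 1 between wild-type heart (n = 4) and wild-type scWAT (n = 5) for 7 genes on 3 scales, with filled symbols for an adjusted p under 0.05 (limma) and a dashed line for the median of all genes on each scale. Zfp36l2, Zfp36 and Khsrp lie left of the median on each scale, and Tia1 lies right of it.

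Within the wild-type mice, the extremes were as in the pooled comparison and the order between them varied. In the 4 wild-type mice that gave both tissues, scWAT held 4.36 to 15.7 times the heart level of Zfp36l2 and 3.24 to 9.85 times that of Zfp36. For Elavl1 the ratio ran from 1.82 (A14) to 5.01 (A5), and for Tia1 from 1.3 (A8) to 3.6 (A5). The highest ratio came from A5 in each of the 7 genes, the mouse whose heart had the highest mitochondrially encoded share. Mouse A30, labelled knockout, had 2.28 times as much Elavl1 and 2.88 times as much Zfp36l2 in scWAT as in heart. Its highest ratio of the 7 genes was that of Zfp36, at 3.22, and its lowest that of Tia1, at 1.42.

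Shares within the set do not depend on the TPM total. Hnrnpd made up the most of the summed level of the 10 genes in each group, 29.8% ± 2.81 (SD, n = 5) in wild-type scWAT and 34.6% ± 6.72 (SD, n = 4) in wild-type heart. Within the Zfp36 family, Zfp36l1 took 32.6% ± 5.55 (SD, n = 5) in wild-type scWAT and 49.1% ± 4.62 (SD, n = 4) in wild-type heart. Zfp36l2 took 37.3% ± 5.59 and 22.4% ± 1.26, and neither pair of ranges overlapped. The share of Zfp36 was 30.1% ± 4.33 and 28.5% ± 5.4 and overlapped. Per transcript of Elavl1 there were 2.15 ± 1.08 of Zfp36l2 in wild-type scWAT and 0.770 ± 0.221 in wild-type heart, with no overlap. For the whole Zfp36 family the ratio to Elavl1 was 5.55 ± 1.83 and 3.42 ± 0.875, which overlapped. Tia1 made up 5.61% ± 0.463 of the summed level of the 10 genes in wild-type scWAT and 10.1% ± 1.78 in wild-type heart, with no overlap.

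With the genotype label these shares overlapped in both tissues for the 7 tested members. In scWAT the Zfp36 family stood at 5.24 ± 1.66 times Elavl1 (SD, n = 3) with the knockout label, against 5.55 ± 1.83 in wild type. In the heart it stood at 3.16 ± 0.984 times Elavl1 (SD, n = 4) with the knockout label. Zfp36l1 was 39% ± 3.12 of the Zfp36 family in scWAT labelled knockout and 49.5% ± 4.32 in heart labelled knockout, so its difference between the tissues was also seen there. For Zfp36l2 the means with the knockout label were 34.3% in scWAT and 25.6% in heart. Those ranges overlapped, with 28.6% in scWAT of A26 and 29.2% in the heart of A30.

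**Figure D5:**
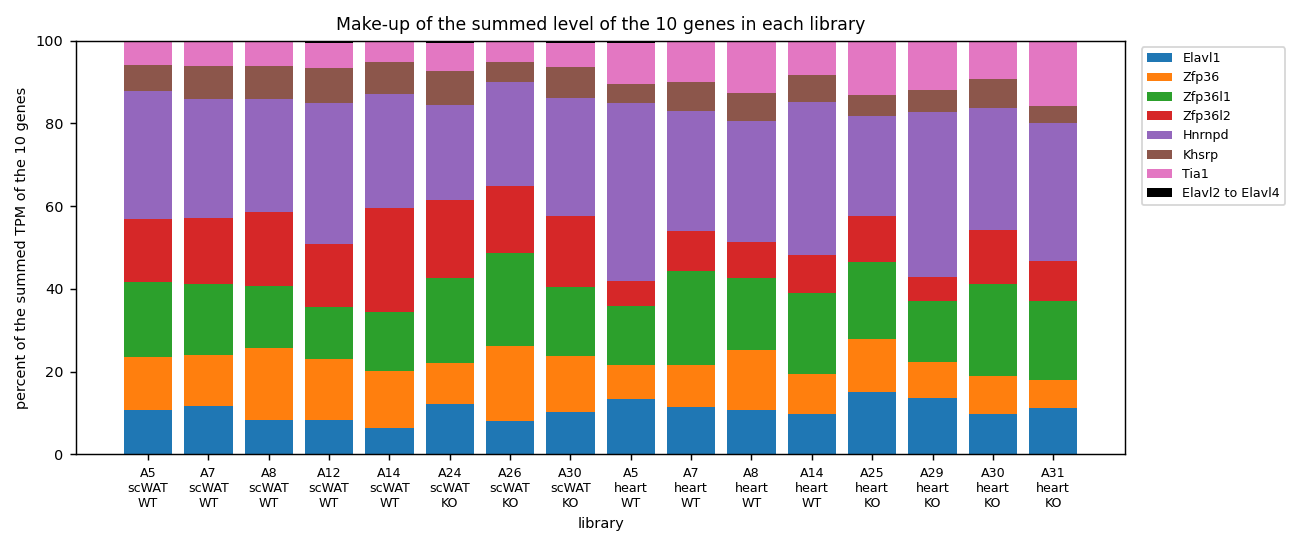
Percent of the summed TPM of the 10 genes taken by each gene (y axis, 0 to 100) in each of the 16 libraries (x axis, mouse, tissue and genotype label). Zfp36l2 takes 15.2% to 25.1% in wild-type scWAT and 6.07% to 9.76% in wild-type heart, and Tia1 4.89% to 6.18% and 8.19% to 12.5%.

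Hnrnpd led the order of levels in each group, and the order below it differed between the tissues. In wild-type scWAT the order by mean TPM was Hnrnpd, Zfp36l2, Zfp36l1, Zfp36, Elavl1, Khsrp and Tia1, followed by Elavl3, Elavl2 and Elavl4. Hnrnpd was above Zfp36l2 in 5 of 5 libraries and Zfp36 above Elavl1 in 5 of 5, while Zfp36l2 and Zfp36l1, Zfp36l1 and Zfp36, and Elavl1 and Khsrp kept their order in 3 of 5 libraries each and are not set apart by these data. In wild-type heart the order was Hnrnpd, Zfp36l1, Zfp36, Elavl1, Tia1, Zfp36l2 and Khsrp. Hnrnpd was above Zfp36l1, and Zfp36l1 above Zfp36, in 4 of 4 hearts, but Zfp36 was above Elavl1 in 2 of 4. Khsrp was the lowest of the 7 in each of the 4 wild-type hearts and Tia1 in each of the 5 wild-type scWAT libraries.

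Whether the difference with the genotype label itself differed between the tissues was tested with an interaction term over the 16 libraries. Limma called 0 of the 7 members and 7 of 11536 genes (0.0607%). At an unadjusted p under 0.05 there were also 0 members, against 20.5% of all genes. The interaction was below 0 for 7 of 7 members, meaning a lower genotype difference in heart than in scWAT, and for 32.6% of all genes. It ran from -0.88 for Zfp36l1 (95% confidence interval -2.06 to 0.31) to -0.30 for Tia1, with adjusted p from 0.380 to 0.775. For Elavl1 it was -0.57 (95% confidence interval -1.32 to 0.18; limma, adjusted p = 0.380). The sign was the same for the 7 members in each of 24 alternatives, which share libraries. With array weights 4 members (Elavl1, Zfp36l1, Hnrnpd and Khsrp) were called, as were 5263 of 11536 genes.

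The other genes of the pathway were read from 8 lists written from general knowledge, of which limma called 0 genes in either comparison of genotype labels. Over all genes tested, 53.9% in scWAT and 72.4% in the heart had a log2 fold change above 0, the medians were 0.03 and 0.26, and 15.6% and 24.6% had an unadjusted p under 0.05. Among 28 other proteins that bind AU-rich or U-rich RNA, 19 had a log2 fold change above 0 in scWAT, with a median of 0.14, and 25 in the heart, with a median of 0.29 against 0.26 over all genes. At an unadjusted p under 0.05 there were 1 in scWAT and 3 in the heart. Msi2, a stem cell regulator of translation, was at 13.8 to 15.4 TPM in scWAT labelled knockout and 17.8 to 23.2 TPM in wild type (log2 fold change -0.44; limma, adjusted p = 0.219). In the heart Igf2bp2 and the cold-induced gene Rbm3 had log2 fold changes of 1.11 and 1.19, each with an adjusted p of 0.142 (limma).

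The decay machinery that the Zfp36 proteins recruit showed the same lack of calls. Of 20 deadenylation genes, 15 were above 0 in scWAT and 10 in the heart, with medians of 0.10 and 0.03, and 3 and 0 had an unadjusted p under 0.05. Btg1, an antiproliferative partner of the CCR4-NOT complex, was at 130 to 196 TPM in scWAT labelled knockout and 87.1 to 101 TPM in wild type, with no overlap (log2 fold change 0.70; limma, adjusted p = 0.216). Cnot3 and Cnot6, a scaffold and a catalytic subunit of that complex, were at 0.43 and 0.36 with adjusted p of 0.235 and 0.280. Of 16 genes of decapping and 5′ decay, Patl1 (0.46, adjusted p = 0.225) had the smallest p in scWAT and Lsm5 (0.94, adjusted p = 0.142) in the heart. Among 14 tested genes of the RNA exosome and its cofactors, Dis3, a catalytic subunit, was at 0.54 in scWAT (adjusted p = 0.249) and 0.68 in the heart (adjusted p = 0.174). The medians of the decapping and exosome lists were 0.16 and 0.08 in scWAT, and 0.29 and 0.49 in the heart. At an unadjusted p under 0.05 there were 1 decapping and 2 exosome genes in scWAT, and 6 and 3 in the heart.

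Of 15 partners and modifiers of HuR, 2 in scWAT and 4 in the heart had an unadjusted p under 0.05. Tnpo2, a nuclear import receptor that carries HuR, had the smallest p in scWAT. It was at 13.8 to 15.4 TPM in libraries labelled knockout and 21.9 to 36.3 TPM in wild type, with no overlap (log2 fold change -0.93, SE 0.17; limma, adjusted p = 0.191). Xpo1, the export receptor CRM1 that HuR uses through adaptor proteins, was at 14 to 21.9 TPM against 9.56 to 13.2 TPM (0.51; adjusted p = 0.251). In the heart Anp32a, such an adaptor, was at 113 to 185 TPM in hearts labelled knockout and 92.7 to 113 TPM in wild type (0.56; limma, adjusted p = 0.144).

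Of 36 genes commonly cited as bound by HuR, 34 were tested in scWAT and 33 in heart. The log2 fold change was above 0 for 21 and 27 of them, with medians of 0.18 and 0.31, and 4 and 9 had an unadjusted p under 0.05. These are 11.8% and 27.3% of those tested, near the 15.6% and 24.6% over all genes. Cdkn1b, the cell cycle inhibitor p27, was at 20.8 to 31.6 TPM in scWAT labelled knockout and 9.77 to 16.1 TPM in wild type (0.90; limma, adjusted p = 0.216). Sirt1 was at 0.39 and Ets1 at 1.00, with adjusted p of 0.282 and 0.283, and in the heart Cdkn1a, the cell cycle inhibitor p21, was at 1.60 (adjusted p = 0.142). Of 25 commonly cited targets of tristetraprolin, 19 were tested in scWAT and 15 in heart, with 17 and 12 above 0 and medians of 0.37 and 0.70, and 4 and 6 had an unadjusted p under 0.05. Those above 0 were 89.5% and 80.0% of the ones tested, against 53.9% and 72.4% of all genes, and those under 0.05 were 21.1% and 40.0%, against 15.6% and 24.6%. Nfkbiz, a regulator of inflammatory genes, was at 4.21 to 10.4 TPM in scWAT labelled knockout and 1.59 to 3.45 TPM in wild type (0.85; limma, adjusted p = 0.253). In the heart Sphk1, a sphingosine kinase, was at 0.470 to 5.23 TPM in hearts labelled knockout and 0.255 to 0.788 TPM in wild type (1.32; limma, adjusted p = 0.142).

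Immediate early genes, many of which carry AU-rich elements and are induced together with Zfp36, were tested for 22 of 24 listed names in scWAT and 21 in heart. Their median log2 fold changes were 0.41 and 0.30, and 4 and 2 had an unadjusted p under 0.05. Nr4a1 was at 6.28 to 14.2 TPM in scWAT labelled knockout and 2.41 to 5.91 TPM in wild type (1.18; limma, adjusted p = 0.216), and Cyr61 went the other way at -1.51 (adjusted p = 0.231). Between the wild-type tissues, limma called 26 of the 28 other AU-rich or U-rich binding genes, 24 of them lower in heart, where 86.6% of all genes were called and 78.5% were lower. Rbm3 was at 184 to 271 TPM in wild-type scWAT and 14.3 to 37.1 TPM in wild-type heart (-3.22; limma, adjusted p = 1.11e-07). Of the 20 deadenylation genes, 19 were called lower in the heart and 1 higher, with a list median of -1.25 against -1.27 over all genes. Pabpc1 and Btg1 were among the lower ones at -3.65 and -3.47.

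Genes whose levels followed Elavl1 and Zfp36 most closely were sought among 7030 genes that averaged 5 TPM or more in scWAT and in heart, by the smaller of the Pearson correlations within the 8 scWAT and within the 8 heart libraries. For Elavl1 these were Micall1 (smaller correlation 0.949), Phrf1 (0.947), Trmt1l (0.947), Kdm5c (0.925) and Slc39a14 (0.905). The members closest to Elavl1 on this measure were Zfp36l1 (0.835) and Tia1 (0.816). For Zfp36 the closest genes were Xpo6 (0.921), Prkd2 (0.919), Prr14 (0.917), Terf2 (0.890) and Midn (0.888). Zfp36 and Elavl1 were correlated at 0.913 in the heart and 0.322 in scWAT. These are descriptions over libraries that share the scaling to a fixed total.

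The genes with the nonamer shown above were also described as a class, a step chosen after the data had been seen. In scWAT the median log2 fold change was 0.03 for 987 tested genes with 1 or more nonamers and 0.03 for 12641 genes with an annotated 3′ UTR, while 87 genes with 3 or more had a median of 0.11. In the heart the medians were 0.21 for 899 genes with 1 or more, 0.24 for 72 genes with 3 or more, and 0.255 for all 11382. Limma called 0 genes with the nonamer in either comparison, against 0.00791% and 0.0264% of all genes with an annotated 3′ UTR. At an unadjusted p under 0.05 there were 160 in scWAT (16.2%, against 15.4% of all) and 177 in the heart (19.7%, against 24.4%). Genes with the nonamer had longer 3′ UTRs, with a median of 2257 bases against 954 over all annotated genes.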

How the data were processed

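RNA of flash-frozen tissue was extracted with Trizol and made into Illumina TruSeq libraries, per the labels' protocols. The authors deposited 1 table per library of TPM values by gene, per the file headers. Which aligner, quantifier, annotation and build they used is not given in the sources used here. TPM keeps no depth, so no counting interval is given, and the number of libraries limits the precision. The members, lists and comparisons were chosen with earlier results of these data known. Genes averaging 1 TPM or more were tested on log2(TPM + 1) with limma 3.58.1 in R 4.3.3 (eBayes with trend, Benjamini-Hochberg over all genes tested, threshold 0.05, 2-sided). The pseudocount of 1 understates changes of low genes. Each library of a group is a different mouse by its number, so the spread is between animals. Members were also compared by exact 2-sided permutation tests over samples, and the fit was tested on simulated data. Mouse numbers pair the tissues of the same animals; deviations of the 4 wild-type pairs correlated at 0.090, 0.054, 0.122 and 0.167. The text names the 10 members, up to 3 genes per list and comparison by smallest p, and 5 genes most like Elavl1 and Zfp36. 1 gene under that rule is not reported here. Alternatives changed the pseudocount, filter, scaling, weights, covariates, block and libraries. 3′ UTRs came from GENCODE M21 (GRCm38).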

Additional observations from a re-analysis of the deposited data

Results flagged for a closer look

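In 5 of 30 groups of 4 or 5 libraries, 1 library lay farther from its neighbour than expected from the range of its group, where chance alone gives about 1.5. In wild-type heart, A5 was the lowest library by such a gap for Zfp36l2 (3.0 TPM, the others 9.84 to 10.8 TPM) and for Khsrp (2.24 TPM, the others 7.21 to 7.71 TPM). It was the highest for Elavl2, at 0.256 TPM against at most 0.00671 TPM. Its mitochondrially encoded share was 60.6% of TPM, the highest of the 16 libraries, and its part in these values was not tested. Also in wild-type heart, A14 was lowest for Elavl3, at 0.0153 TPM against 0.0341 to 0.0374 TPM. Among hearts labelled knockout, A30 was highest for Khsrp at 11.3 TPM, against 3.06 to 3.46 TPM in the other 3.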

How the results depend on the processing

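The 7 tested members were refitted under each alternative, which gave 518 values; 482 kept their direction and their side of the threshold, 25 changed sign, 8 newly passed the threshold with the same sign, and 3 kept their sign and no longer passed it. Of the values that passed in the main comparison, all of them between tissues, 6 in all no longer passed and 1 passed with the opposite sign. The mouse as a replicate block changed no call of a member; it called 11370 genes between tissues against 11342, and 7 against 7 for the interaction. In scWAT, Elavl1 turned to -0.26 with marker covariates, and Zfp36 ranged from -0.036 to 0.69 with 1 library left out. In heart, Elavl1, Zfp36l2 and Tia1 turned to -0.25, -0.18 and -0.12 with median-of-ratios scaling and -0.19, -0.32 and -0.19 with array weights; without mitochondrially encoded genes Elavl1 and Zfp36l2 were at -0.12 and -0.064. With 1 heart left out, Elavl1 ranged from -0.14 to 0.14, Zfp36l1 from -0.43 to 0.17, Zfp36l2 from -0.31 to 0.43, Hnrnpd from -0.46 to 0.030 and Tia1 from -0.10 to 0.36. Between tissues, median-of-ratios scaling gave 0.10 for Elavl1, 0.021 for Zfp36l1 and 0.56 for Tia1 (members called: 3 lower, 1 higher). The total without mitochondrially encoded genes gave 0.15 for Tia1 (4 called lower). These settings called 8685 of 12898 and 9272 of 13608 genes between tissues. Array weights called 4 members lower in heart and 4 in the interaction, where 7885 of 11981 and 5263 of 11536 genes were called.

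Counts over all genes moved more. In scWAT the 3 calls became 6 without a filter, 1 with a filter of 5 TPM, 5 with median-of-ratios scaling, 80 with array weights, 0 with covariates, 179 in a fit shared by 16 libraries, and 2 to 130 with 1 library left out (10 without A24, 130 without A26, 75 without A30). In heart the 6 calls became 11, 2, 7885 with array weights, 846 in the shared fit, and 3 to 4705 with 1 left out, the highest without A29. For the interaction the 7 calls became 11 with a pseudocount of 5, 11 without a filter, 3 with a filter of 5 TPM, 272 with median-of-ratios scaling, 17 without mitochondrially encoded genes, 5263 with array weights, and 5 to 2863 with 1 left out, the highest again without A29. Fewer genes were tested with the stricter filter; the other causes were not tested. The unknown depth limits what the trace levels of Elavl2, Elavl3 and Elavl4 show.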
